A study of Mus musculus with 6 samples.

Results

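The angiogenic growth factors of synovial fibroblasts (SFs), the stromal cells of the joint lining, were examined in untreated SFs of arthritic mice and in SFs treated with amisulpride, an antipsychotic that antagonises dopamine and serotonin receptors. The genes were chosen by name: Vegfa, Vegfb, Vegfc and Pgf of the vascular endothelial growth factor (VEGF) family, Angpt1 and Angpt2 of the angiopoietins, the angiopoietin-like gene Angptl2, and the neuropilin receptors Nrp1 and Nrp2. All 9 had a row among the 49548 genes of the deposited table. The cells came from the ankles of CBA C57BL/6J mice aged 8 weeks that carry a human TNF transgene (hTNFtg), which all 6 libraries share, and CD45+ cells were depleted at passage 1. The labels give 3 libraries of hTNFtg SFs with no treatment and 3 of hTNFtg SFs given amisulpride at 500 μM for 48 h. The study's methods name a vehicle control where the labels name none, and speak of biological replicates without saying whether each came from its own mouse.

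New vessels carry leukocytes and nutrients into the inflamed synovium, and SFs are a known source of the signals that drive their growth. VEGF-A, VEGF-B and placental growth factor (Pgf) bind the receptor Flt1, VEGF-A also signals through Kdr, and VEGF-C acts mainly on Flt4, the receptor of lymphatic endothelium. Neuropilins bind VEGF ligands and class 3 semaphorins at the cell surface and pass the signal on through VEGF receptors or plexins. Angiopoietin 1 activates the receptor Tek and stabilises vessels, angiopoietin 2 mostly opposes it, and angiopoietin-like 2 is a secreted protein linked to chronic inflammation.

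The promoters of the 3 genes whose values in treated SFs all lay below those in untreated SFs are shown beside that of Vegfa, whose values did not separate. Each is a window around a RefSeq transcript start (build GRCm38.p6, the sequence of mm10), written on the strand of the gene, with matches to any of 5 motifs in capitals. The motifs, searched on both strands, were the hypoxia response core (ACGTG or GCGTG), the GC box bound by Sp1-type factors (GGGCGG), the TATA box (TATAAA), the AP-1 site (TGANTCA) and the NF-kB consensus.
Angptl2, chr2:33215711-33216010, plus strand: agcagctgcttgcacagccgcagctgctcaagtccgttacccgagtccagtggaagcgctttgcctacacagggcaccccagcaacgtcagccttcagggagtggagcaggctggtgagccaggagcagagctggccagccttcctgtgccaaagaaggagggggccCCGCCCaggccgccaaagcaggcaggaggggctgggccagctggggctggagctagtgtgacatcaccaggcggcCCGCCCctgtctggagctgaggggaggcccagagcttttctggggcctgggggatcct
Vegfc, chr8:54077282-54077581, plus strand: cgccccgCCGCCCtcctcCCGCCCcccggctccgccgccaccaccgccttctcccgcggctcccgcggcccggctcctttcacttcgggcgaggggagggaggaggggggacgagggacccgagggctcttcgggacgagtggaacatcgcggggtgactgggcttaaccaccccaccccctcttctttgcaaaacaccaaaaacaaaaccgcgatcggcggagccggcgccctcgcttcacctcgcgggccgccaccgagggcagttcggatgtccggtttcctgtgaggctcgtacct
Nrp2, chr1:62703067-62703366, plus strand: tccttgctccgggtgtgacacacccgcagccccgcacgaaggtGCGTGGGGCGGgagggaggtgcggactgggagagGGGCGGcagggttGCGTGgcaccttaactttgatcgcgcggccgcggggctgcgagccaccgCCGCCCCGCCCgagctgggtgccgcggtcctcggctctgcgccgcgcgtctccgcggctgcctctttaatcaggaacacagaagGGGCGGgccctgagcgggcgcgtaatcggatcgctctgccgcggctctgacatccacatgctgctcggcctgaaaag
Vegfa, chr17:46032328-46032627, minus strand: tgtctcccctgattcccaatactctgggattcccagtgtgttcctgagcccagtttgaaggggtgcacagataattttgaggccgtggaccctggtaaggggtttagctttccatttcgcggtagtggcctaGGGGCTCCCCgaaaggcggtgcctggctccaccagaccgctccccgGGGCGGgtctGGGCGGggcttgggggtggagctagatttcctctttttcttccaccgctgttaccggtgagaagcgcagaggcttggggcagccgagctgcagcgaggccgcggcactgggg

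All 4 windows held GC boxes, 2 in Angptl2, 2 in Vegfc, 5 in Nrp2 and 2 in Vegfa, a motif found in 35.7% of the 32851 promoters of this length. The hypoxia response core (43.8% of promoters) was matched at 2 places in Nrp2 and at none in the windows of Angptl2, Vegfc and Vegfa shown. At the second RefSeq start of Vegfa it was matched at 2 places. That window (chr17:46025114-46025413) lies inside the gene, downstream of the first start, so these matches are in transcribed sequence. The NF-kB consensus (8.46% of promoters) was matched in Vegfa from position -118 relative to the start, on both strands. No TATA box (13.6%) or AP-1 site (7.81%) was matched in these 4 windows. The 4 windows had a GC content of 66.7%, 70.3%, 70.7% and 62%, all above the upper quartile of all promoters (61.7%). A match describes letters in the window and does not show that a factor binds there. Sites outside these short windows were not searched, so an absent match does not show that a gene lacks the motif.

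Libraries were made from the 3′ ends of transcripts, and the values are read counts that the authors scaled per library and rounded, called normalised counts here. Depth was estimated at 2.52 to 4.71 M reads per library, with that of untreated replicate 1 uncertain. Between 16851 and 18364 genes had a value above 0. Amisulpride replicate 3, the shallowest library, stood apart on the first principal component (73.9, against -38.2 to 10.4 for the other 5), so results that rest on it are given with and without it. All 13 fibroblast markers were tested, and genes that define fibroblasts, such as Col1a1 (10814 to 35599 normalised counts) and Pdgfra (301 to 460), were well above 0 in each library, whereas Fap was low (3 to 29) and, in untreated replicate 2, under the value of 3 reads. Of 18 endothelial markers, 6 were at 0 in all 6 libraries, among them Cdh5, Cldn5 and Tie1, and 10 never exceeded the value of 3 reads. All 12 myeloid markers were detected, led by Lyz2, with a summed level of 2444 to 4249 in untreated and 2393 to 4297 in treated SFs. Ptprc was low (5 to 38) and, in amisulpride replicate 3, under the value of 3 reads.

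With limma, 7 of the 9 genes could be tested, since Pgf and Angpt2 did not reach a normalised count of 10 in 3 libraries. The clearest change was that of Angptl2, which fell by 63.1%, while Vegfa, the best known angiogenic factor, stayed within the spread of its replicates. Vegfc and Nrp2 had lower values in each treated library than in any untreated one, and Angpt1, Nrp1 and Vegfb overlapped between the groups. A gene passed the study thresholds where its log2 fold change reached 1 in either direction and its unadjusted p-value was under 0.05. By this rule 1 of the 7 tested genes passed, Angptl2. Of all 12614 genes tested, 719 passed in either direction, and 3.01% were lower and passed. Angptl2 was also the 1 member with an adjusted p-value under 0.05, as were 36 of all genes in either direction and 0.19% of all genes in the lower direction. An unadjusted p-value under 0.05 was found for Angptl2, Vegfc and Nrp2, 3 of the 7. It was found for 1373 of all 12614 genes in either direction and for 5.77% in the lower direction. The same 3 were the members whose groups did not overlap, against 8.66% of all genes with every treated value below every untreated one. All 7 estimates lay below 0, against 49.9% of all genes, with a median log2 fold change of -0.49 beside 0.00 for all genes. These genes were picked as a family with earlier results known, so the counts describe them and carry no test of their own.

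**Figure D1:**
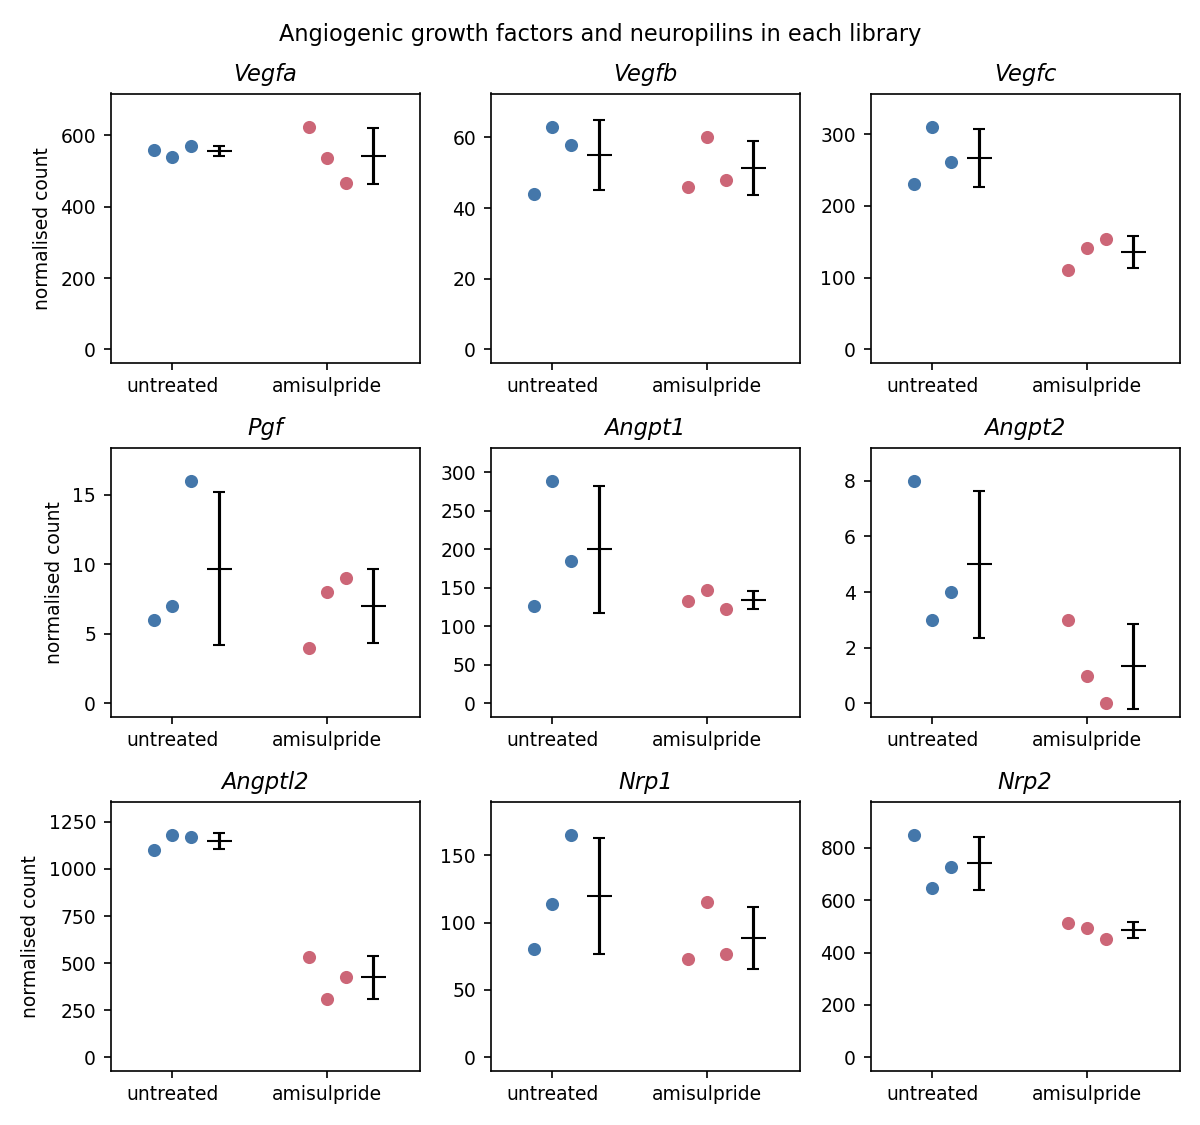
Normalised counts of the 9 genes in each library (points), with the mean and SD of each group of 3 libraries beside them, on a linear axis for each gene. Points of untreated and treated SFs are apart for Vegfc, Angptl2 and Nrp2, and Vegfa lies between 467 and 624 in all 6 libraries.

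Among the VEGF ligands, Vegfa (ENSMUSG00000023951, chromosome 17, 46016993 to 46032369, minus strand), the main driver of vessel growth, had normalised counts of 558, 540 and 570 in untreated SFs and 624, 537 and 467 in treated SFs. The treated values lay on both sides of the untreated ones and were more spread, with an SD of 78.7 against 15.1 (n = 3 each). Its log2 fold change was -0.04 ± 0.23 (SE; adjusted p 0.961 in limma). The 95% interval of the fold change ran from 0.684 to 1.37, so a change larger than this was outside the interval and smaller ones could not be told from none. Without amisulpride replicate 3 the estimate was 0.06.

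Vegfb (ENSMUSG00000024962, chromosome 19, 6982473 to 6987651, minus strand), a ligand of Flt1 and Nrp1 with a weak effect on vessels, had 44, 63 and 58 normalised counts in untreated and 46, 60 and 48 in treated SFs. The groups overlapped almost fully, with a log2 fold change of -0.09 ± 0.30 and an interval of the fold change from 0.594 to 1.48 (adjusted p 0.934 in limma).

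Vegfc (ENSMUSG00000031520, chromosome 8, 54077606 to 54187096, plus strand), the growth factor of lymphatic vessels, had 230, 310 and 261 normalised counts in untreated samples and 111, 141 and 154 in treated SFs. The highest treated value was below the lowest untreated one, and the means were 267 ± 40.3 and 135 ± 22.1 (SD, n = 3), a difference of -49.3%. The log2 fold change was -0.98 ± 0.25 (95% interval -1.54 to -0.42), with an unadjusted p of 0.00263 and an adjusted p of 0.154 in limma. Vegfc was thus just inside the fold threshold and did not pass after adjustment. It stood past the study thresholds when untreated replicate 1 (-1.08), amisulpride replicate 2 (-1.01) or amisulpride replicate 3 (-1.08) was left out, and with each library weighted by its precision (-1.07, adjusted p 0.0396). The adjusted p of Vegfc ranged from 0.0396 to 0.524 over the alternatives, and was 0.0612 with the replicate number as a block.

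Pgf (ENSMUSG00000004791, chromosome 12, 85166639 to 85177296, minus strand), placental growth factor, was low at 6, 7 and 16 normalised counts in untreated and 4, 8 and 9 in treated SFs. Each value was above the floor of its library, defined as the value of 3 reads. Pgf was therefore detected in all 6 libraries at approximately 4.46 to 19.2 reads, and a difference between the groups was not tested.

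Of the angiopoietins, Angpt1 passed neither rule and Angpt2 was too low to test. Angpt1 (ENSMUSG00000022309, chromosome 15, 42424727 to 42676977, minus strand), the agonist of Tek, had 126, 289 and 185 normalised counts in untreated samples and 133, 147 and 123 in treated SFs. The treated values were close together and lay at the low end of a wide untreated range. The log2 fold change of Angpt1 was -0.49 ± 0.31, with an adjusted p of 0.611 in limma. It depended on single untreated libraries, at -0.19 without untreated replicate 2. Leaving out untreated replicate 1 gave -0.78 with an unadjusted p of 0.0255. The antisense gene Gm17473 shares 737 exonic bases with Angpt1 and was at 0 in all libraries.

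Angpt2 (ENSMUSG00000031465, chromosome 8, 18690263 to 18741562, minus strand), the context-dependent antagonist, had 8, 3 and 4 normalised counts in untreated and 3, 1 and 0 in treated SFs. Values were above the floor in 2 untreated libraries and 1 treated library, at most 8.19 reads by estimate, and no fold change is given. The gene lies inside Mcph1 on the other strand, without shared exons.

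Angptl2 (ENSMUSG00000004105, chromosome 2, 33216069 to 33247717, plus strand) had 1102, 1181 and 1168 normalised counts in untreated samples and 535, 309 and 428 in treated SFs. The untreated values were close together and all lay far above the highest treated value. Angptl2 fell from 1150 ± 42.4 to 424 ± 113 (SD, n = 3), a 2.71-fold lower mean, with a log2 fold change of -1.47 ± 0.26 (95% interval -2.04 to -0.91) and an adjusted p of 0.0443 in limma. The fall passed the study thresholds in all 12 alternatives, with log2 fold changes of -1.66 to -1.26. The adjusted p was near its threshold and ranged from 0.00594 to 0.232. It was above 0.05 without untreated replicate 1 (0.186), untreated replicate 2 (0.191), untreated replicate 3 (0.232), amisulpride replicate 1 (0.0570) or amisulpride replicate 2 (0.16), and 0.0189 without amisulpride replicate 3. Angptl2 lies inside Ralgps1 on the other strand, without shared exons, and Ralgps1 was at 5 to 52 normalised counts.

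The neuropilins differed from each other in how far their groups separated. Nrp2 (ENSMUSG00000025969, chromosome 1, 62703285 to 62818695, plus strand), the coreceptor for VEGF-C and for class 3 semaphorins, had 849, 648 and 725 normalised counts in untreated and 513, 495 and 451 in treated SFs. The groups did not overlap, and the means were 741 ± 101 and 486 ± 31.9 (SD, n = 3). The log2 fold change of Nrp2 was -0.60 ± 0.23 (95% interval -1.10 to -0.09), with an unadjusted p of 0.0241 and an adjusted p of 0.355 in limma, so it passed neither rule. Leaving out untreated replicate 1 gave an unadjusted p of 0.0699, and leaving out untreated replicate 3 gave 0.0593.

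Nrp1 (ENSMUSG00000025810, chromosome 8, 128358604 to 128503363, plus strand), the coreceptor for VEGF-A, had 80, 114 and 165 normalised counts in untreated and 73, 115 and 77 in treated SFs. The groups overlapped, with a log2 fold change of -0.40 ± 0.33 and an adjusted p of 0.705 in limma. Leaving out untreated replicate 3 gave -0.14, and leaving out untreated replicate 1 gave -0.66. Whether the change of Nrp1 differs from that of Nrp2 was not tested. Nrp1 shares 80 exonic bases with the microRNA gene Mir1903, which was at 1 to 4 normalised counts.

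**Figure D2:**
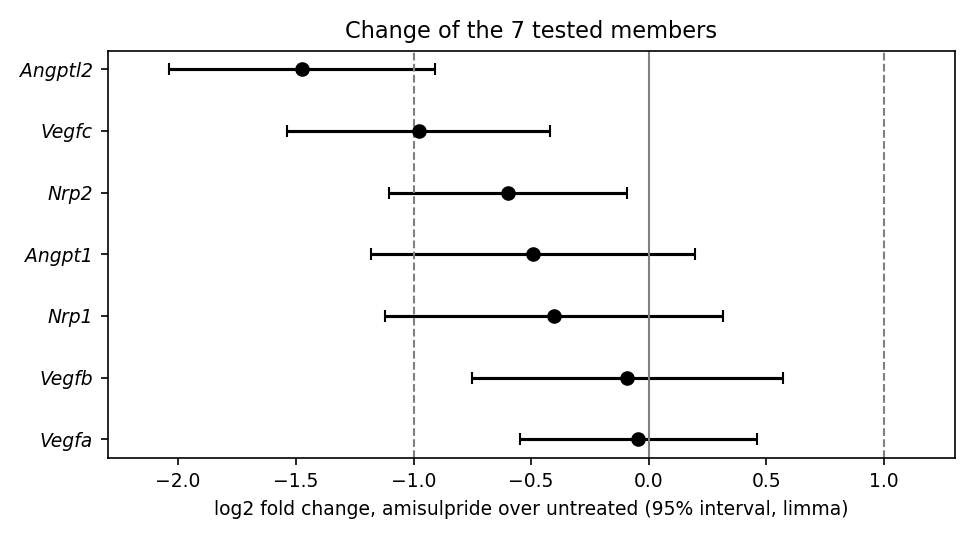
Log2 fold change of the 7 tested genes, amisulpride over untreated, with the 95% interval from limma (bars) and dashed lines at -1 and 1. The intervals of Angptl2, Vegfc and Nrp2 lie below 0, and those of Angpt1, Nrp1, Vegfb and Vegfa include it.

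Because Vegfa did not separate the groups, the other genes were also set against it within each library, which removes the scaling between libraries. Ratios of this kind compare changes and not levels, since the reads of 2 genes are not on a common scale. The ratio of Angptl2 to Vegfa was 1.97, 2.19 and 2.05 in untreated and 0.857, 0.575 and 0.916 in treated SFs. That of Vegfc to Vegfa was 0.412, 0.574 and 0.458 in untreated and 0.178, 0.263 and 0.33 in treated SFs. The ratio of Nrp2 to Vegfa was 1.52, 1.2 and 1.27 in untreated and 0.822, 0.922 and 0.966 in treated SFs. None of these 3 ratios overlapped between the groups, whereas those of Vegfb, Angpt1 and Nrp1 to Vegfa did. They belong to the same 3 genes whose counts did not overlap. Vegfa was chosen because it did not separate, so the ratios largely restate those counts and add no support. The share of all genes whose ratio to Vegfa does not overlap was not computed. An exact permutation test cannot go below 0.1 with 3 libraries against 3, so none was run.

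**Figure D3:**
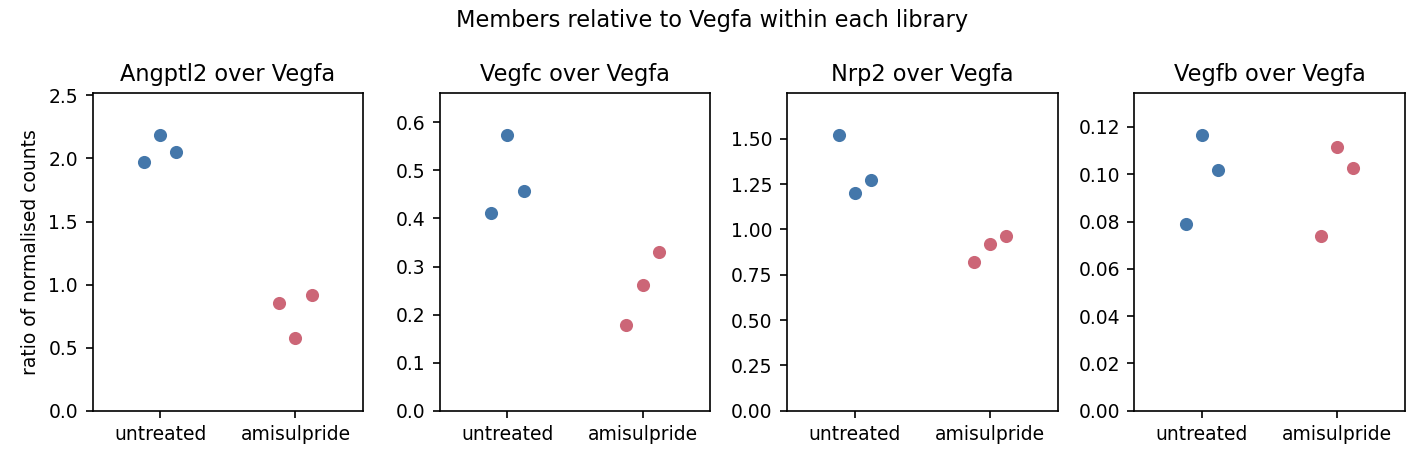
Ratio of normalised counts of Angptl2, Vegfc, Nrp2 and Vegfb to Vegfa in each library (points), on linear axes from 0. The 3 treated ratios lie below the 3 untreated ones for Angptl2, Vegfc and Nrp2, and the groups overlap for Vegfb.

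Apart from the neuropilins, described above, and Flt4, the VEGF and angiopoietin receptors examined were sparse in the SFs. Receptors of Angptl2 were not examined. Flt4, the receptor of VEGF-C, had 80, 79 and 48 normalised counts in untreated and 45, 40 and 23 in treated SFs. Its groups did not overlap, and its log2 fold change was -0.94 ± 0.36 with an unadjusted p of 0.0245 and an adjusted p of 0.356 in limma, so it passed neither rule. Flt4 stood past the study thresholds without untreated replicate 3 (-1.18), amisulpride replicate 1 (-1.12) or amisulpride replicate 2 (-1.04). Its unadjusted p was above 0.05 without amisulpride replicate 3 (-0.65, p 0.0734), when untreated replicate 1 (p 0.0848) or untreated replicate 2 (p 0.0885) was left out, and with each library weighted by its precision (-0.70, p 0.0544), all in limma. With the replicate block the adjusted p of Flt4 in limma was 0.157. Flt1, the receptor of Vegfa, Vegfb and Pgf, was at 10, 7 and 2 in untreated and 4, 8 and 4 in treated SFs. Kdr, the main signalling receptor of VEGF-A, was at 0 to 1 in all libraries, and Tek, the angiopoietin receptor, at 3, 12 and 1 in untreated and 5, 1 and 2 in treated SFs. Of the 7 genes listed with the receptors, 2 were tested, Flt4 and Gipc1, and Tie1 and Ptprb were at 0 throughout. Gipc1, which is not itself a receptor of these ligands, had 115, 79 and 104 in untreated and 96, 70 and 127 in treated SFs (log2 fold change -0.05 ± 0.30). Apart from the neuropilins, Flt4 was therefore the only VEGF or angiopoietin receptor examined that could be tested.

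The partners of the neuropilins moved in both directions. Of 12 class 3 semaphorins and plexins, 9 were tested, with a median log2 fold change of -0.09. Past the study thresholds 2 were higher and 1 lower, against 2.69% and 3.01% of all genes. Sema3c, a secreted neuropilin ligand, had 263, 212 and 189 normalised counts in untreated and 545, 415 and 628 in treated SFs. It rose by 1.25 ± 0.26 on the log2 scale (adjusted p 0.0761 in limma, 0.0168 with the replicate block, up to 0.35 over the alternatives). Sema3d, another such ligand, rose from 32, 17 and 19 to 84, 47 and 38 (log2 fold change 1.25 ± 0.40), and was not past the thresholds without amisulpride replicate 1 (0.92, unadjusted p 0.0582 in limma). Plxnd1, a semaphorin receptor of vessels, fell from 54, 23 and 43 to 22, 13 and 14 (log2 fold change -1.20 ± 0.43), but not past the thresholds without untreated replicate 1 (-0.94) or untreated replicate 3 (-1.10). With the replicate block the adjusted p in limma was 0.0805 for Sema3d and 0.149 for Plxnd1.

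Of 7 other ligands of the VEGF, angiopoietin and angiopoietin-like families, 5 were tested, with a median log2 fold change of 0.13. Past the study thresholds 1 was higher and 1 lower, against 2.69% and 3.01% of all genes. Angptl6, a secreted angiopoietin-like factor, rose from 9, 11 and 14 to 39, 59 and 48 normalised counts, a log2 fold change of 2.01 ± 0.38. Its adjusted p was 0.0611 in limma, 0.013 with the replicate block, and up to 0.229 over the alternatives. Angptl7, another secreted member, fell from 458, 294 and 299 to 185, 83 and 97, a log2 fold change of -1.58 ± 0.33. The adjusted p of Angptl7 was 0.0764 in limma, 0.00398 with the replicate block, and up to 0.336 over the alternatives. The 3 angiopoietin-like genes that passed the study thresholds, Angptl2, Angptl6 and Angptl7, therefore did not share a direction. Vegfd, the closest relative of Vegfc and also a ligand of Flt4, had 282, 508 and 276 normalised counts in untreated and 538, 867 and 254 in treated SFs, with overlapping groups (log2 fold change 0.53 ± 0.41, adjusted p 0.696).

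Of 32 other pro-angiogenic factors, 30 were tested, with a median log2 fold change of -0.19. Past the study thresholds 4 were higher and 3 lower, against 2.69% and 3.01% of all genes. Mdk, the growth factor midkine, rose from 24, 12 and 23 to 46, 43 and 157 normalised counts (log2 fold change 1.80 ± 0.51, adjusted p 0.19 in limma and 0.0221 with the replicate block, 1.2 without amisulpride replicate 3). Fgf2, a fibroblast growth factor that acts on endothelium, rose from 155, 146 and 45 to 198, 246 and 451 (log2 fold change 1.47 ± 0.46). However, Fgf2 stood at 0.89 without untreated replicate 3 and 1.12 without amisulpride replicate 3. Ctgf, a matrix-associated growth factor, rose from 9403 to 11976 in untreated to 15297 to 40012 in treated SFs (log2 fold change 1.11 ± 0.38), but stood at 0.70 without amisulpride replicate 3 and 0.90 with each library weighted by its precision. Cxcl2, a chemokine for neutrophils, fell from 24, 68 and 44 to 8, 19 and 7 (log2 fold change -1.92 ± 0.51, adjusted p 0.167 and 0.0257 with the replicate block). Fgf10, a factor for epithelium, fell from 37, 31 and 32 to 17, 15 and 4 (log2 fold change -1.60 ± 0.52, -1.01 without amisulpride replicate 3). Pdgfc, a ligand of fibroblast PDGF receptors, fell from 76, 58 and 89 to 38, 19 and 52 (log2 fold change -1.10 ± 0.39), but stood at -0.96 without untreated replicate 3 and -0.71 without amisulpride replicate 2. With the replicate block the adjusted p in limma was 0.0761 for Fgf2, 0.128 for Ctgf, 0.0975 for Fgf10 and 0.0969 for Pdgfc. Over the alternatives it reached 0.483 for Mdk and 0.546 for Cxcl2.

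Of 22 genes listed as inhibitors of angiogenesis, 16 were tested, with a median log2 fold change of 0.22. Of the 16 estimates 12 lay above 0 and 4 below, against 49.9% of all genes below 0. Only 1 gene passed the study thresholds, against 3.01% of all genes that were lower and passed. It was Vash2, which, unlike its relative Vash1, is known to promote vessel growth, and so does not do what the name of the list says. Vash1, the inhibitor, was at 0 in all libraries. Vash2 had 21, 36 and 49 normalised counts in untreated and 19, 5 and 16 in treated SFs (log2 fold change -1.44 ± 0.54). It did not pass without untreated replicate 2 (-1.39), untreated replicate 3 (-1.17) or amisulpride replicate 2 (-0.90). With the replicate block its adjusted p in limma was 0.157. Timp3, an inhibitor of matrix metalloproteinases and of VEGF signalling, had 2464, 3313 and 2047 normalised counts in untreated and 5848, 5485 and 4105 in treated SFs. Its groups did not overlap, and it was just inside the fold threshold (log2 fold change 0.99 ± 0.28, unadjusted p 0.00453 and adjusted p 0.197 in limma).

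Hypoxia is the best known inducer of Vegfa, acting through the factor Hif1a, and 37 of 38 genes of this response were tested. Their median log2 fold change was -0.03, with 2 higher and 1 lower past the study thresholds, against 2.69% and 3.01% of all genes. Hif1a itself had 956, 1349 and 1485 normalised counts in untreated and 1189, 841 and 839 in treated SFs, with overlapping groups (log2 fold change -0.40 ± 0.27, adjusted p 0.635 in limma). Ero1l, an oxidase of the endoplasmic reticulum, rose from 625, 656 and 726 to 1751, 1850 and 1714, a log2 fold change of 1.41 ± 0.22 and an adjusted p of 0.0277, which was above 0.05 when any library but amisulpride replicate 3 was left out (up to 0.169). Ndrg1, a stress-response gene, rose from 182, 281 and 285 to 513, 764 and 918, a log2 fold change of 1.54 ± 0.29 and an adjusted p of 0.0611, or 0.003 with the replicate block and 0.0477 without amisulpride replicate 3. Slc16a3, a lactate exporter, fell from 1165, 708 and 919 to 353, 268 and 435, a log2 fold change of -1.40 ± 0.28 and an adjusted p of 0.0652, or 0.00661 with the replicate block and 0.0159 without amisulpride replicate 3. Over the alternatives the adjusted p in limma reached 0.24 for Ndrg1 and 0.304 for Slc16a3. Among the 99 tested genes of these 6 lists, those most like Vegfa over the 6 libraries were the glycolytic enzyme Aldoa (Pearson r 0.904 of log2 values), the Hif1a partner Arnt (0.826) and the glycolytic enzyme Pfkp (0.815), a description of 6 points only.

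**Figure D4:**
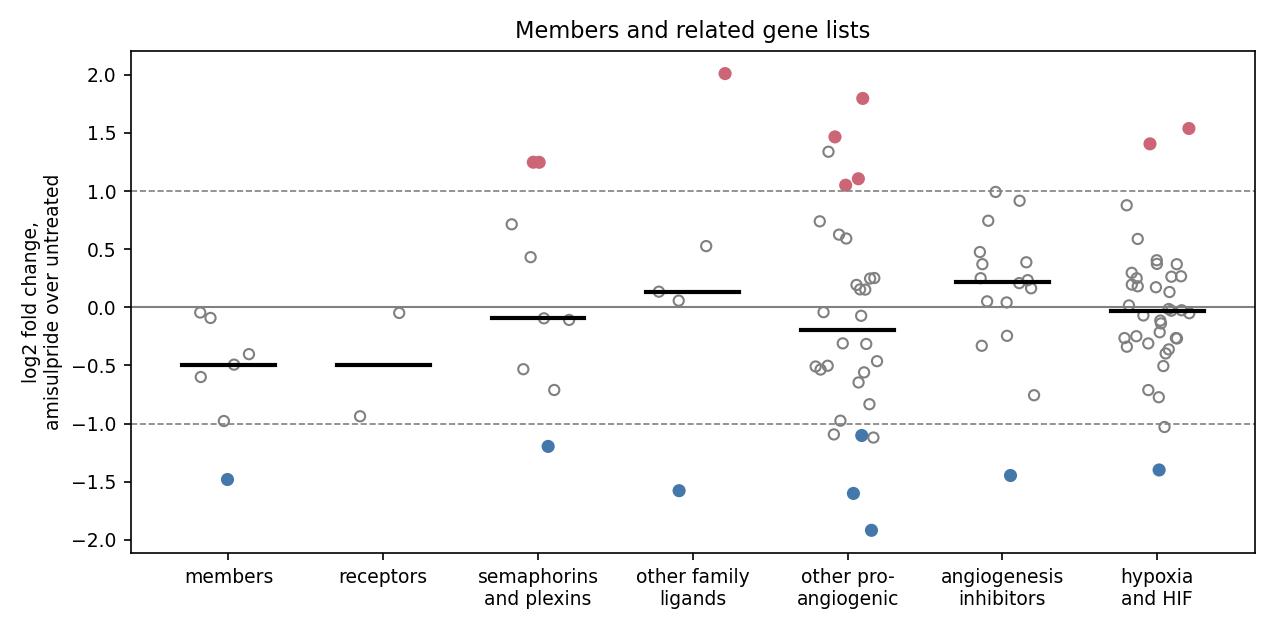
Log2 fold change of each tested gene (points) for the members and the 6 related lists, with the median as a bar and dashed lines at -1 and 1. Filled points passed the study thresholds, red above and blue below 0. In the related lists together 9 of 99 tested genes were higher and 7 lower, against 2.69% and 3.01% of all genes.

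Markers of other cells were set beside these results. In bulk RNA, fewer cells of a type and less RNA per cell cannot be told apart. The 18 endothelial markers summed to 88 to 119 normalised counts in untreated and 31 to 72 in treated SFs, mostly from Egfl7, and the defining markers Cdh5, Cldn5 and Tie1 were at 0. Egfl7, the 1 endothelial marker tested, had 66, 84 and 78 in untreated and 50, 59 and 25 in treated SFs. Its groups did not overlap, and it passed neither rule (log2 fold change -0.83 ± 0.36, unadjusted p 0.0386 and adjusted p 0.424 in limma). The 11 mural cell markers summed to 5849 to 10322 in untreated and 1868 to 5364 in treated SFs, most of it Acta2, which activated fibroblasts also express. Acta2 was at 6413, 5030 and 9384 in untreated and 2714, 1253 and 4586 in treated SFs, and Mcam at 112, 122 and 184 against 53, 47 and 57, both past the study thresholds (log2 fold changes of -1.43 ± 0.43 and -1.37 ± 0.29). The other 3 mural markers tested, Pdgfrb (-0.14 ± 0.26), Notch3 (-0.08 ± 0.44) and Cspg4 (0.21 ± 0.40), overlapped between the groups. Rgs5, the marker of pericytes, was at 2 to 12 and Higd1b at 0 in all libraries. The part of these cells in the lower values of Angptl2, Vegfc and Nrp2 was not tested. Myeloid sums overlapped between the groups, although 2 of the 12 genes, Csf1r, whose groups overlapped, and Cd14, were lower past the study thresholds (log2 fold changes of -1.01 ± 0.46 and -1.74 ± 0.44). Of all genes tested, 3.01% were lower past these thresholds. Of the 12 myeloid estimates 5 lay above 0, among them C1qc (0.95 ± 0.41, unadjusted p 0.0392 in limma), Adgre1 (0.83 ± 0.43) and C1qb (0.75 ± 0.36, without overlap), and none of these 3 passed the study thresholds. Among the 13 fibroblast markers, none passed the study thresholds. Of their estimates 9 lay above 0 and 4 below, against 49.9% of all genes below 0. Prg4, the lubricin gene of lining fibroblasts, had 915, 859 and 733 normalised counts in untreated and 426, 304 and 653 in treated SFs, without overlap (log2 fold change -0.92 ± 0.29, unadjusted p 0.00924 and adjusted p 0.251 in limma). Its part in the lower values of the members was not tested.

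**Figure D5:**
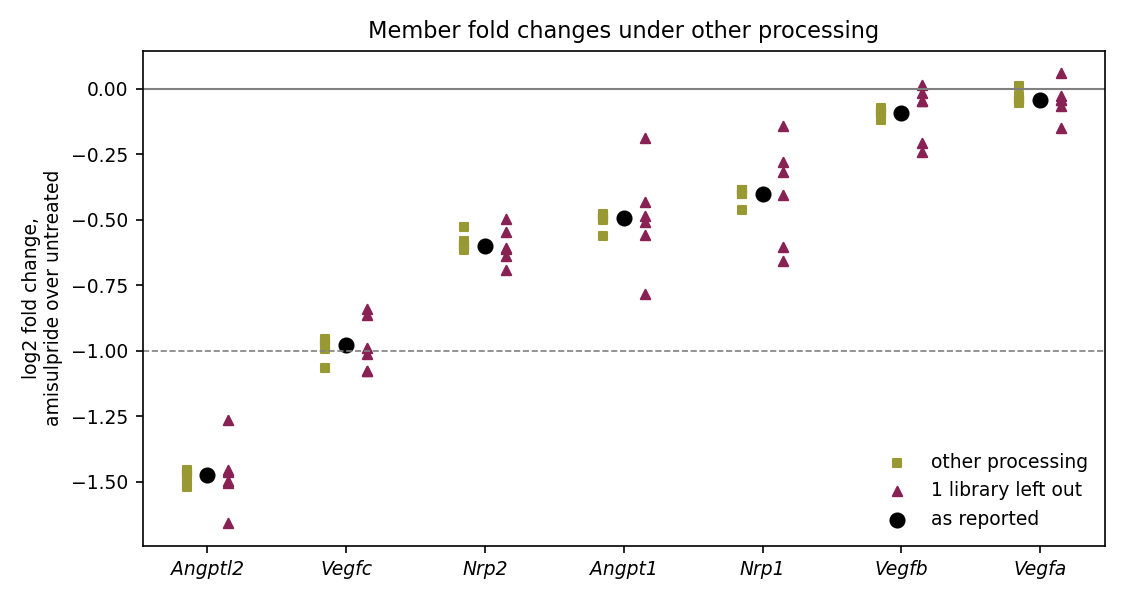
Log2 fold change of the 7 tested genes as reported (black), under 6 other ways of processing (squares) and with 1 library left out (triangles), with a dashed line at -1. Angptl2 stays below -1 throughout, Vegfc lies on both sides of it, and Vegfa and Vegfb lie on both sides of 0.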

How the data were processed

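RNA of 3 untreated and 3 amisulpride-treated samples of hTNFtg SFs was sequenced from transcript 3′ ends (QuantSeq, Ion Proton). Per the study's methods, the authors aligned reads to mm10 with TopHat2 and realigned unmapped reads with Bowtie2 (versions not given in the sources used here), counted them per gene, removed genes without reads and normalised with DESeq. The deposited values used here are these normalised counts rounded to whole numbers, treated as a score and not as raw counts. The 12 other columns of values per library were not used, nor were the authors' means, fold changes, p-values and FDRs. Whether counting used strand is not given in the sources used here.

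Values were tested as log2(normalised count + 1) with limma 3.58.1 in R 4.3.3 (eBayes with trend, 2-sided), over the 12614 genes that reached 10 normalised counts in at least 3 libraries, with Benjamini-Hochberg adjustment. Fold changes on this scale understate the change of low genes. Nothing in the labels says that replicates came from separate animals, so p-values measure the spread between these samples, which may be technical. Same-numbered libraries deviated together (correlations of 0.229, 0.240 and 0.201, against -0.149 to -0.0777 for other pairs), so the numbers were taken as pairs from the data, and a replicate block was fitted as an alternative. The worth of 1 read was estimated from the spacing of low values. Floors of 3 reads cover counting error only. The script was tested on simulated data.

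All members are named, with the genes of 6 related lists past the study thresholds (at most 3 per direction and list, by p-value), Hif1a, Kdr, Flt1, Flt4 and Tek, and the 3 genes most like Vegfa. Vegfd, Timp3, Vash1, Tie1, Ptprb, Gipc1 and the marker genes were named after their values were seen. The members and lists were chosen with earlier results of these data known. Alternatives were another pseudocount, no filter, quantile normalisation, median centring, library weights, the block, and each library left out. Promoters are from RefSeq (GRCm38.p6), where 7 of the 9 genes matched, and gene overlaps from GENCODE M21.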

Additional observations from a re-analysis of the deposited data

How the results depend on the processing

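Of the 7 tested genes, Vegfa and Vegfb changed sign, both near 0: Vegfa stood at 0.012 on the log2 scale with library weights and 0.058 without amisulpride replicate 3, and Vegfb at 0.013 without untreated replicate 2. Vegfc passed the study thresholds with library weights (-1.07). With 1 library left out, log2 fold changes ranged from -1.66 to -1.26 for Angptl2, -1.08 to -0.84 for Vegfc, -0.69 to -0.50 for Nrp2, -0.78 to -0.19 for Angpt1, -0.66 to -0.14 for Nrp1, -0.24 to 0.01 for Vegfb and -0.15 to 0.06 for Vegfa. The number of these genes past the study thresholds went from 1 to 2 with library weights (1 to 2 with a library left out), and that with an adjusted p under 0.05 from 1 to 2 with library weights (0 to 1 with a library left out). The number with an unadjusted p under 0.05 was 3 in all alternatives except without untreated replicate 3 (2), but without untreated replicate 1 it held Angpt1 in place of Nrp2.

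Over all genes, the 1373 with an unadjusted p under 0.05 became 911 to 1630 with a library left out, the lowest without untreated replicate 3. The 719 past the study thresholds became 1313 without the filter, where more genes were tested. The 36 with an adjusted p under 0.05 became 57 with a pseudocount of 5, 57 without the filter, 66 with quantile normalisation, 195 with library weights and 0 to 120 with a library left out (0 without untreated replicate 2 or 3, where 1083 and 911 genes had an unadjusted p under 0.05 in limma). With the replicate block, which uses the pairing, the count was 263, and the adjusted p was 0.00594 for Angptl2 and 0.0612 for Vegfc. The block changed no call of a member. In the related lists 16 genes passed the study thresholds, or 17 with the block. For 17 genes of these lists, those named for passing the study thresholds with Hif1a and Flt4, the call was kept in 190 of 204 results under alternatives, 11 lost it and 3 gained it, and the other named genes were not followed across alternatives. The causes of these shifts were not tested. Depth limits Pgf and Angpt2, which were too low to be tested.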
